A study of Mus musculus with 22 samples.

Results

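The 8 genes described here, Pck1, Gpd1, Aqp7, Gpam, Agpat2, Lpin1, Dgat1 and Dgat2, make triglyceride in fat cells, supply its glycerol or carry glycerol across the fat cell membrane. They were taken by gene symbol from an array table of 19337 named genes, each gene is read by 1 feature of the array, and all 8 passed the filter on low values. The table covers 22 fat samples of C57BL/6J males that received bone marrow transplants. After 6 weeks for the marrow to reconstitute, the mice were fed for 14 weeks on a diet that drew 60% of its calories from fat. All groups shared the transplant and the diet. In inguinal subcutaneous fat (ingWAT) 3 arrays came from mice with Gipr-/-S100a9-/- marrow, called double-knockout marrow here, 3 from mice with Gipr-/- marrow and 4 from mice with WT marrow. In epididymal fat (epiWAT) each of the 3 kinds of marrow had 4 arrays. Gipr encodes the receptor of the gut hormone GIP, and S100a9 encodes a subunit of an alarmin of neutrophils and monocytes. Recipients of WT and Gipr-/- marrow were WT; for double-knockout marrow the labels name no recipient. Marrow transplants chiefly replace blood-derived cells, so fat cells were taken to keep the genotype of the recipient, which was not measured.

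Fat cells store fatty acids as triglyceride by adding them to a glycerol 3-phosphate backbone. The backbone comes from glucose through glycerol 3-phosphate dehydrogenase (Gpd1), or from pyruvate and amino acids through phosphoenolpyruvate carboxykinase (Pck1), a route called glyceroneogenesis. Gpam attaches the first fatty acid, Agpat2 the next, Lpin1 removes the phosphate to give diacylglycerol, and Dgat1 and Dgat2 add the last fatty acid. Aqp7 is the membrane channel through which glycerol leaves the fat cell. Pck1, Gpam, Lpin1 and Dgat2 are among the members known to respond to insulin, cyclic AMP or lipid-sensing nuclear receptors.

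Promoter windows are shown for Pck1 and Gpam, the members with the largest differences in epiWAT between Gipr-/- marrow and either other kind, and the largest differences between depots with double-knockout marrow. Each window runs from 250 bases before to 50 bases after a gene start in RefSeq, build GRCm38.p6; windows for 5 of the 8 members were listed. Capitals mark matches, on either strand, to 4 short motifs: ACGTCA (a core of the cyclic AMP response element), AGGTCA (a core of nuclear receptor sites), CACGTG (an E-box) and CCAAT. The Pck1 window is chr2:173152823-173153122 on the + strand; the Gpam windows are chr19:55127189-55127488 and chr19:55099428-55099727 on the - strand.
Pck1: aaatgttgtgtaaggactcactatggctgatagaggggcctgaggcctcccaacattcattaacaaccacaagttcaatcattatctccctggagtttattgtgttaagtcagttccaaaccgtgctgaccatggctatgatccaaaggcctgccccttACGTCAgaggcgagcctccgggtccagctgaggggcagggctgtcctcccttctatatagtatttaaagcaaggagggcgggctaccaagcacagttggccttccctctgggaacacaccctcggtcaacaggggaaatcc
Gpam, first start: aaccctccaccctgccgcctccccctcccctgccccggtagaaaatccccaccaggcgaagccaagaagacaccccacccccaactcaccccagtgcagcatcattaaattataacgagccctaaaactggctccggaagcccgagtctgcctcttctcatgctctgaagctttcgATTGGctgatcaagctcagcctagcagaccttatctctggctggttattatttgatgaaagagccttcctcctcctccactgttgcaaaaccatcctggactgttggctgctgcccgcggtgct
Gpam, second start: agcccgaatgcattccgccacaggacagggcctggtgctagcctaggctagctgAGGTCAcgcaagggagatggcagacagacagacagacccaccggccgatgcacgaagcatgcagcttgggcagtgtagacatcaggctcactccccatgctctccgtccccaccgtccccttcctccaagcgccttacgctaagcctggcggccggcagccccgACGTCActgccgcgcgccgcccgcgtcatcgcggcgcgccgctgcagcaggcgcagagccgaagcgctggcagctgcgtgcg
The Pck1 window held 1 ACGTCA, beginning 91 bases before the start. The first Gpam window held 1 CCAAT, on the opposite strand, 74 bases before the start. The second held AGGTCA 196 bases and ACGTCA 32 bases before its start. Among the other windows, AGGTCA was found in that of Lpin1, 74 bases before the start, and in both of Aqp7, and no motif was found in that of Agpat2. The 2 Aqp7 windows overlap, and the match 49 bases before the first start is the same site as that 223 bases before the second. Of all 32851 windows, 7.51% held ACGTCA, 16.26% held AGGTCA, 7.15% held CACGTG and 37.41% held CCAAT. These matches describe letters in the windows; binding was not measured.

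The tissue label was checked on fat cell markers: Adipoq, which encodes the fat hormone adiponectin, had log2 signals of 18.00 to 19.40 over the 22 arrays. The targeted genes were dim in this tissue, at 4.02 to 6.10 for Gipr and 4.56 to 6.98 for S100a9, and neither passed the test in any comparison. In epiWAT Gipr averaged 5.38 with Gipr-/- marrow and 4.78 with WT marrow. S100a9 averaged 5.82 with double-knockout and 5.65 with WT marrow in ingWAT, and 5.18 and 5.37 in epiWAT. The marrow labels could thus not be checked on these genes. A marker score is the mean, over a list of genes, of the log2 signal minus that gene's mean over all arrays. Arrays 1 and 3 of ingWAT with double-knockout marrow had scores of 4.54 and 4.45 for B and T cell or lymph node genes, against -0.97 to 0.07 in the other ingWAT arrays. The skeletal muscle score ran from -1.79 to 7.70 across ingWAT arrays. In epiWAT, array 1 with double-knockout marrow had an epididymis score of 7.21, array 1 with Gipr-/- marrow a testis germ cell score of 6.90, and array 2 with WT marrow 3.91 and 3.11 for epididymis and testis. Aqp7 is also expressed in testis. Within bulk fat, fewer fat cells and less RNA per fat cell cannot be told apart. Since no label ties each array to a mouse of its own, p-values here cover the spread between arrays, which may be technical.

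**Figure D1:**
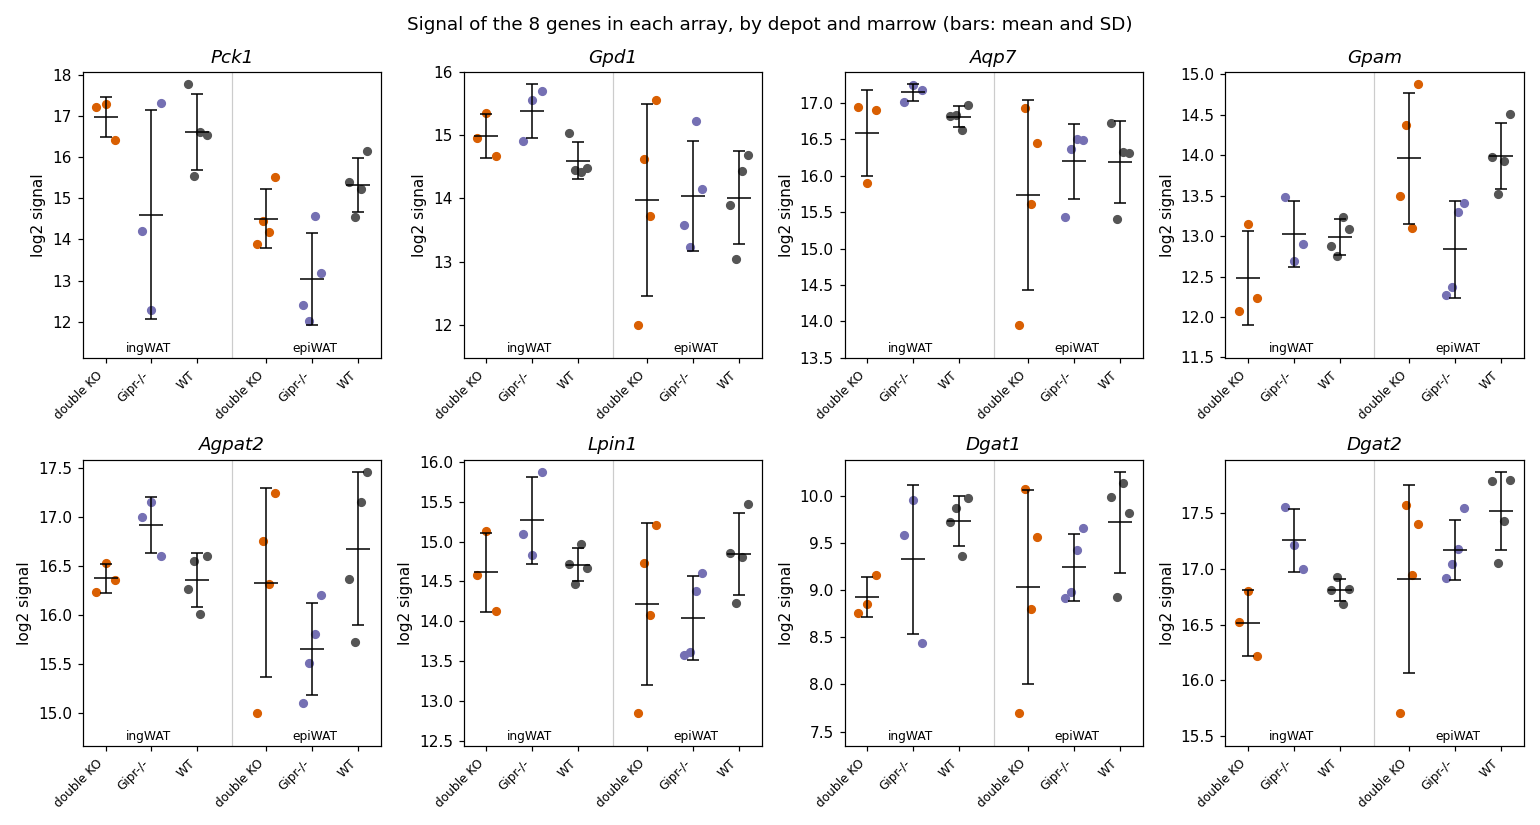
Log2 signal (vertical axis, its own scale for each gene) of the 8 genes in each of 22 arrays, by depot and marrow; points are arrays, bars the mean and SD of a group. Pck1 spreads from 12.28 to 17.32 in ingWAT with Gipr-/- marrow, while Dgat2 in ingWAT with WT marrow stays within 16.68 to 16.93.

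In epiWAT the members with the largest differences were Pck1 and Gpam, both lower on average with Gipr-/- marrow than with WT marrow, but 0 of 8 members passed the test. The test was limma's moderated test over 14502 genes with Benjamini-Hochberg adjustment and a threshold of 0.05, and 0% of all genes passed it in this comparison. At an unadjusted p under 0.05, 2 of 8 members and 7.25% of all genes stood out. Pck1, the key enzyme of glyceroneogenesis, had log2 signals of 12.40, 12.03, 14.57 and 13.17 with Gipr-/- marrow, against 15.39, 14.56, 15.23 and 16.15 with WT marrow. The groups touched at a single array on each side, the highest with Gipr-/- marrow and the lowest with WT marrow. The difference was -2.29 (SE 0.54, 95% interval -3.47 to -1.10, adjusted p = 0.387), a 4.89-fold lower mean signal. Gpam, the acyltransferase of the first step, had 12.27, 12.37, 13.30 and 13.41 with Gipr-/- marrow, against 13.98, 13.52, 13.93 and 14.51 with WT marrow. All 4 arrays with Gipr-/- marrow lay below all 4 with WT marrow, which was so for 1 of 8 members and 5.04% of all genes. The difference for Gpam was -1.15 (SE 0.41, adjusted p = 0.615).

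Among the later steps, Agpat2, whose loss causes lipodystrophy, averaged 15.66 ± 0.47 with Gipr-/- marrow and 16.68 ± 0.78 with WT marrow (SD, n = 4 each). The groups overlapped, and the difference of -1.02 had a 95% interval of -2.09 to 0.05. Lpin1, the phosphatidate phosphatase, differed by -0.80 (interval -1.82 to 0.22). Dgat1 and Dgat2, the enzymes of the last step, differed by -0.47 and -0.35. Gpd1, of glycerol supply from glucose, differed by 0.03 and Aqp7, the glycerol channel, by 0.00, with intervals of -1.47 to 1.53 and -1.21 to 1.21. In all, 6 of 8 members were lower, with a median difference of -0.64, beside -0.02 over all genes. Without the 3 epiWAT arrays high in testis or epididymis genes all 8 were lower, with a median of -0.74.

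With double-knockout marrow, epiWAT had Pck1 and Gpam signals above those with Gipr-/- marrow on average, again with 0 of 8 members past the test (0% of all genes). Here 2 of 8 members and 10.7% of all genes had an unadjusted p under 0.05. Pck1 had 13.89, 14.45, 14.18 and 15.52 with double-knockout marrow, against the 12.40, 12.03, 14.57 and 13.17 with Gipr-/- marrow. The groups overlapped for all 8 members, beside 6.05% of all genes without overlap, and the Pck1 difference was 1.47 (SE 0.54, adjusted p = 0.361). For Gpam the arrays gave 13.49, 14.37, 13.10 and 14.88 with double-knockout marrow, a difference of 1.12 (SE 0.41, adjusted p = 0.355) from Gipr-/- marrow, and these groups overlapped too. The other members split by sign, from -0.46 for Aqp7 to 0.68 for Agpat2, so that 4 of 8 were higher and 4 lower. Without the arrays high in testis or epididymis genes 7 of 8 were higher, with a median of 0.46. This comparison and the previous one share the arrays with Gipr-/- marrow, so their opposite signs for Pck1 and Gpam are not independent of each other.

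Set against WT marrow, double-knockout marrow left 0 of 8 members past the test in epiWAT (0% of all genes; 3.06% at an unadjusted p under 0.05, and 0 of the members), and the groups of 0 members and 2.32% of all genes did not overlap. All 8 differences were below 0, with a median of -0.53, beside -0.02 over all genes. They ran from -0.82 for Pck1 (interval -2.01 to 0.36) to -0.03 for Gpam (interval -0.92 to 0.86). Array 1 with double-knockout marrow was the lowest of the 12 epiWAT arrays for 6 of the 8 members, Agpat2, Lpin1, Dgat1, Dgat2, Aqp7 and Gpd1. Its Gpd1 signal was 12.00, against 13.04 to 15.56 in the other 11 epiWAT arrays. The same array had the epididymis score of 7.21 and the lowest mature adipocyte score of all, -1.45. Without it and the other epiWAT arrays high in testis or epididymis genes 7 of 8 differences were below 0, with a median of -0.29.

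The mature adipocyte score rests on 15 of 17 listed markers, none of them a member. It ran from -1.45 to 0.43 with double-knockout marrow, from -0.88 to -0.15 with Gipr-/- marrow and from -0.40 to 0.40 with WT marrow. The macrophage score, over 16 of 17 markers, was -1.16 to 0.66, 0.61 to 1.73 and -0.47 to 1.13 in the same groups. With the adipocyte score as a covariate, the epiWAT differences of Pck1 and Gpam between Gipr-/- and WT marrow became -1.71 (adjusted p = 0.0754) and -0.65 (adjusted p = 0.259). With that covariate 4 of 8 members were below 0 in each of the 3 epiWAT comparisons, with medians of -0.15 for double-knockout minus Gipr-/-, 0.05 for double-knockout minus WT and 0.05 for Gipr-/- minus WT marrow. The part of macrophage content in these values was not tested.

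**Figure D2:**
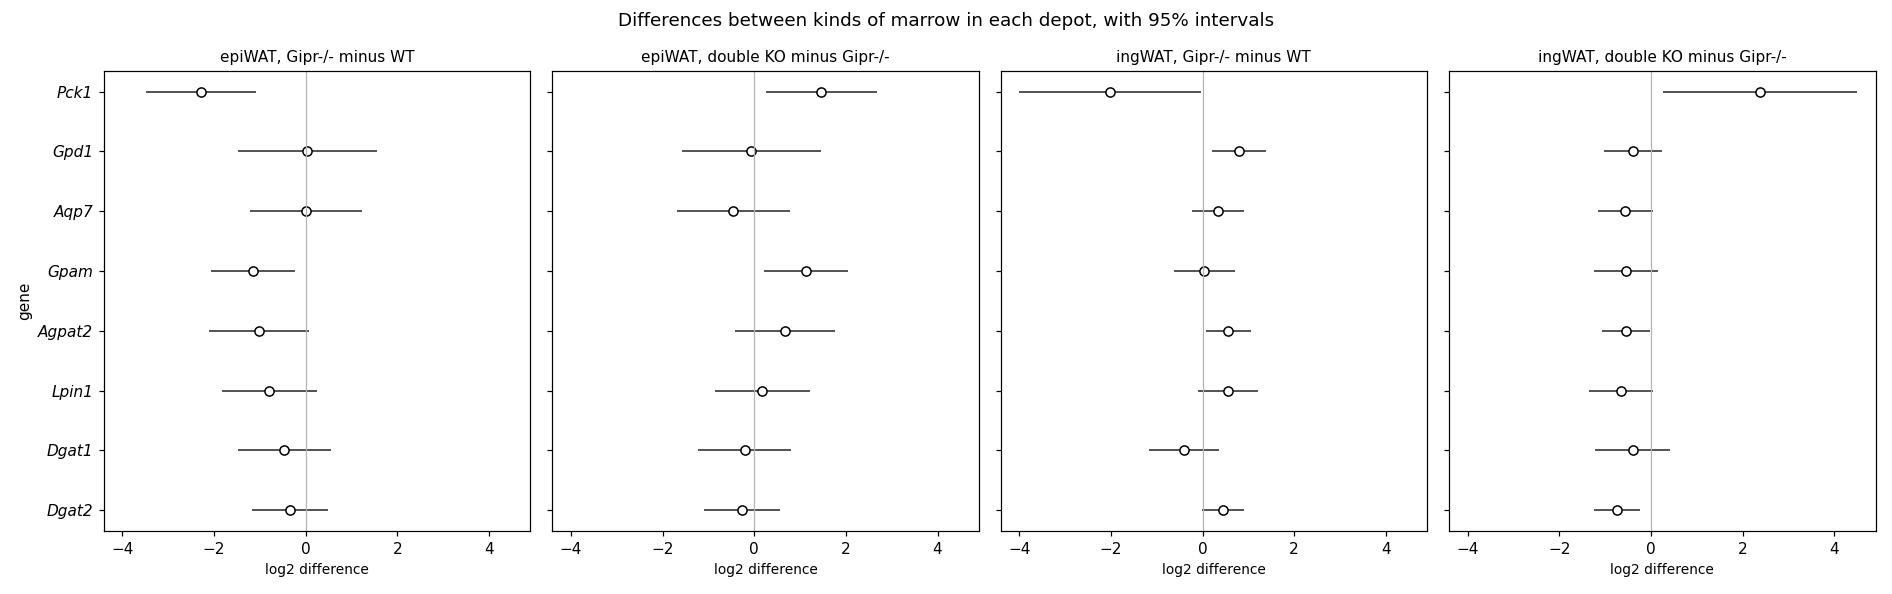
Log2 differences (horizontal axis) of the 8 genes in 4 comparisons between kinds of marrow; circles are limma estimates, lines their 95% intervals, and filled circles would mark adjusted p under 0.05. No circle is filled, and in epiWAT the Pck1 and Gpam intervals lie below 0 for Gipr-/- minus WT marrow and above 0 for double-knockout minus Gipr-/- marrow.

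In ingWAT the picture for Gipr-/- marrow differed by gene. Agpat2, Dgat2 and Gpd1 were higher on average than with WT marrow and Pck1 was lower, but 0 of 8 members passed the test, beside 0.234% of all genes. At an unadjusted p under 0.05 stood 4 of 8 members and 15.0% of all genes. Pck1 had 14.22, 12.28 and 17.32 with Gipr-/- marrow, against 17.79, 15.54, 16.61 and 16.55 with WT marrow. A pair of the arrays with Gipr-/- marrow lay below all WT arrays, and the remaining one lay above all but the highest. That pair and WT array 4 have title numbers above those of all other ingWAT arrays. In WT array 4 Pck1 was 16.55, within the range of the other WT arrays, and the part of the numbers was not tested. The difference was -2.02 (SE 0.90, adjusted p = 0.318), and it ranged from -3.38 without Gipr-/- array 3 to -0.86 without Gipr-/- array 2. The same arrays had mature adipocyte scores of 0.05, -0.23 and 0.37, in the same order as their Pck1 signals, against 0.25 to 0.54 with WT marrow. With that score as a covariate the Pck1 difference was 0.01 (adjusted p = 0.998). Not all markers moved with the score, which averaged 0.07 with Gipr-/- marrow and 0.33 with WT marrow. Adipoq averaged 19.30 and 19.01 in these groups, Lep 18.57 and 17.81, and Plin1 15.33 and 15.35. The part of fat cell content in the Pck1 difference was not tested. The skeletal muscle score was -0.74 to 2.27 with Gipr-/- marrow and -1.79 to 7.70 with WT marrow. With it as a covariate 0 of all genes were called, in place of 34, and the differences were -1.75 for Pck1, 0.94 for Gpd1, 0.45 for Agpat2 and 0.49 for Dgat2.

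Gpd1 had 14.91, 15.55 and 15.70 in ingWAT with Gipr-/- marrow, against 15.04, 14.45, 14.42 and 14.48 with WT marrow. WT array 1 alone reached into the range with Gipr-/- marrow, and the difference was 0.79 (SE 0.26, adjusted p = 0.177). Agpat2 had 17.00, 17.16 and 16.61 with Gipr-/- marrow, against 16.27, 16.55, 16.01 and 16.60 with WT marrow. For Agpat2 the groups did not overlap, by a narrow margin, and differed by 0.56 (SE 0.21, adjusted p = 0.241). Dgat2, whose loss leaves newborn mice with very little triglyceride, had 17.56, 17.22 and 17.00 with Gipr-/- marrow, against 16.81, 16.93, 16.68 and 16.82 with WT marrow. Again the groups did not overlap, with a difference of 0.45 (SE 0.20, adjusted p = 0.325). Aqp7 was without overlap as well, at 17.14 ± 0.12 (SD, n = 3) with Gipr-/- marrow and 16.81 ± 0.14 (SD, n = 4) with WT marrow, and its difference of 0.33 had an interval of -0.21 to 0.88. Groups without overlap were thus seen for 3 of 8 members and for 15.4% of all genes. Lpin1, Gpam and Dgat1 differed by 0.56, 0.04 and -0.41, each with an interval that held 0. WT array 4, whose title number lies with Gipr-/- arrays 1 and 2, was the highest WT array for Agpat2, Dgat1 and Aqp7. For the remaining members it lay within the range of the other WT arrays. The narrow margin of Agpat2 lay between WT array 4, at 16.60, and Gipr-/- array 3, at 16.61. Dgat1 was 9.97 in WT array 4 and 9.58, 9.95 and 8.44 in the Gipr-/- arrays. The part of the title numbers was not tested.

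With double-knockout marrow, ingWAT had lower average signals of 7 members than with Gipr-/- marrow and a higher one of Pck1; 0 of 8 passed the test, beside 3.48% of all genes. The median difference was -0.54, beside -0.03 over all genes; without the 2 arrays high in lymphocyte genes it was -0.27, with 6 of 8 members lower. Leaving out those 2 leaves 1 double-knockout array in ingWAT, which the fit takes to vary like the arrays of the other groups. There were 3 of 8 members and 18.9% of all genes with an unadjusted p under 0.05. Dgat2 came nearest, with 16.52, 16.81 and 16.22 with double-knockout marrow, against 17.56, 17.22 and 17.00 with Gipr-/- marrow. All arrays with double-knockout marrow lay below all with Gipr-/- marrow, and the difference was -0.74 (SE 0.22, adjusted p = 0.0859), a 1.67-fold lower mean signal. It passed the test without double-knockout array 2 (-0.89, adjusted p = 0.0298) and with array weights (-0.89, adjusted p = 0.0128). At those settings 1382 and 1797 of the 14502 genes tested passed, in place of 505. Array 2 is the 1 double-knockout array in ingWAT without a high lymphocyte score, at -0.67. Leaving it out kept only the 2 arrays high in lymphocyte genes. The Dgat2 difference was -0.55 with quantile normalization (adjusted p = 0.179) and -0.73 with the adipocyte score as a covariate (adjusted p = 0.356). With all 22 arrays in one fit it stayed at -0.74 (adjusted p = 0.278). With the 1 double-knockout array that has no high lymphocyte score it was -0.45 (adjusted p = 0.549). Agpat2 had 16.24, 16.53 and 16.36 with double-knockout marrow, all below Gipr-/- marrow, and differed by -0.54 (SE 0.23, adjusted p = 0.215). Aqp7 also showed no overlap, so that 3 of 8 members and 22.3% of all genes had separate groups, and its difference of -0.56 had an interval of -1.14 to 0.02. Pck1 had 17.22, 17.30 and 16.42 with double-knockout marrow, and its difference of 2.38 from Gipr-/- marrow (SE 0.96, adjusted p = 0.200) was set against widely spread Gipr-/- arrays. Without Gipr-/- array 3 it was 3.73 (adjusted p = 0.0154), without Gipr-/- array 2 it was 1.21, and with the adipocyte score as a covariate it was -0.01. That score averaged 0.38 with double-knockout marrow and 0.07 with Gipr-/- marrow. Its markers differed in direction: Plin1 averaged 15.84 and 15.33 in these groups, Adipoq 19.23 and 19.30, and Lep 17.13 and 18.57.

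Against WT marrow, double-knockout marrow in ingWAT gave 0 of 8 members past the test (0% of all genes; 1 of 8 members and 13.5% of all genes at an unadjusted p under 0.05). Dgat1, the other diacylglycerol acyltransferase, had 8.76, 8.86 and 9.16 with double-knockout marrow, against 9.72, 9.87, 9.36 and 9.97 with WT marrow. It was the 1 member of 8 whose groups did not overlap, beside 11.0% of all genes, and its difference was -0.81 (SE 0.34, adjusted p = 0.327). The other differences lay between -0.50 for Gpam (interval -1.14 to 0.13) and 0.39 for Gpd1 (interval -0.17 to 0.96), 5 of 8 being below 0. Without the arrays high in lymphocyte genes, which leaves 1 double-knockout array, 3 of 8 were below 0. Agpat2, for which the 3 ingWAT groups had small spreads, differed by 0.02 with an interval of -0.44 to 0.48.

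**Figure D3:**
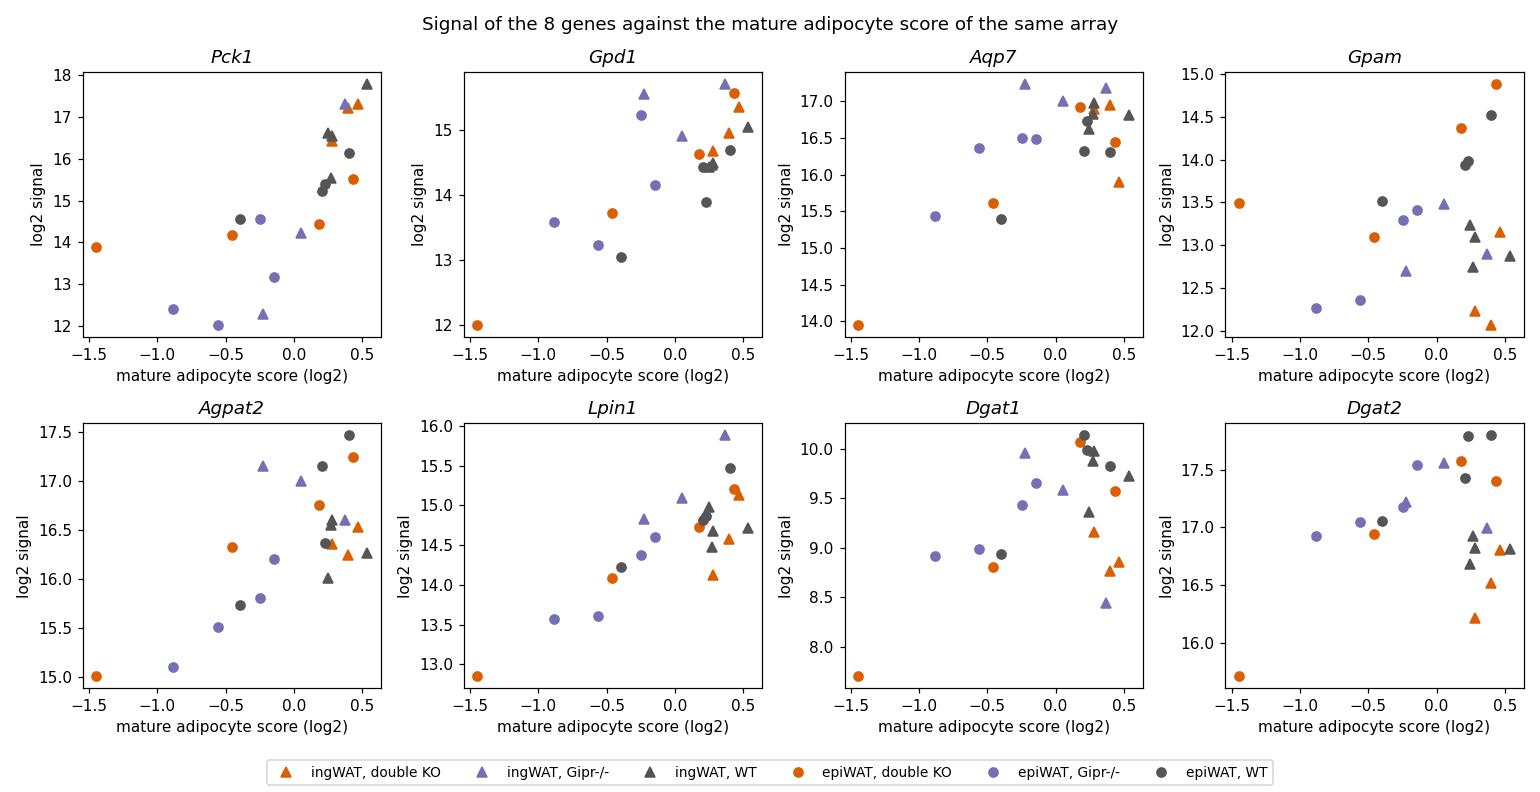
Log2 signal of each of the 8 genes (vertical axis) against the mature adipocyte score of the same array (horizontal axis, log2 units); triangles are ingWAT, circles epiWAT, colours the kind of marrow. The epiWAT array with double-knockout marrow at a score of -1.45 is the lowest for 6 of the genes, and Pck1 is lowest, at 12.03 and 12.28, in arrays with Gipr-/- marrow at scores of -0.56 and -0.23.

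Gpam was the only member past the test in any of the 12 comparisons, in the contrast of depots with double-knockout marrow. It had 12.07, 13.15 and 12.23 in ingWAT, against 13.49, 14.37, 13.10 and 14.88 in epiWAT. The highest ingWAT array lay just above the lowest epiWAT array, and the others were separate. Gpam was lower in ingWAT by a difference of -1.47 (SE 0.39, 95% interval -2.30 to -0.65, adjusted p = 0.0391), a 2.78-fold lower mean signal. Across all genes 3.92% passed in this comparison, 2.21% being lower in ingWAT. It also passed with the adipocyte score as a covariate (-2.07, adjusted p = 0.0031), with array weights (-1.73, adjusted p = 0.0075) and without the 3 epiWAT arrays high in testis or epididymis genes (-1.63, adjusted p = 0.0282). The call ended with each array centred on its median (-1.39, adjusted p = 0.0889) and without ingWAT array 1, ingWAT array 3, epiWAT array 2 or epiWAT array 4 (adjusted p = 0.172, 0.139, 0.0813 and 0.0722), where the differences were -1.27, -1.35, -1.34 and -1.17. The ingWAT arrays that were low in Gpam were the 2 with high lymphocyte scores, and with the 1 ingWAT array left without both, taken to vary like the other groups, the difference was -0.81 (adjusted p = 0.520).

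The same depot difference for Gpam was -1.0 with WT marrow and 0.19 with Gipr-/- marrow. With WT marrow the signals were 12.88, 12.75, 13.23 and 13.09 in ingWAT, against 13.98, 13.52, 13.93 and 14.51 in epiWAT. These groups did not overlap, and the difference had an SE of 0.36 (adjusted p = 0.168). It passed the test with array weights (-1.18, adjusted p = 0.0353) and with the adipocyte score as a covariate (-1.19, adjusted p = 0.0237). At those settings 791 and 535 of all genes passed, in place of 286. With quantile normalization it was -0.80 (adjusted p = 0.278), and with each array centred on its median -0.93 (adjusted p = 0.288). With Gipr-/- marrow the arrays gave 13.48, 12.70 and 12.90 in ingWAT, against 12.27, 12.37, 13.30 and 13.41 in epiWAT, and overlapped. The test of the difference between depot contrasts gave 1.19 for Gipr-/- minus WT marrow (adjusted p = 0.584). It gave -1.67 for double-knockout against Gipr-/- marrow (SE 0.56, adjusted p = 0.168), so they were not shown to differ.

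Dgat2 followed the depot pattern of Gpam with WT marrow. Its signals there were 16.81, 16.93, 16.68 and 16.82 in ingWAT, against 17.79, 17.06, 17.43 and 17.80 in epiWAT, without overlap. The difference was -0.71 (SE 0.30, adjusted p = 0.248). It passed the test without the 3 epiWAT arrays high in testis or epididymis genes (-0.87, adjusted p = 0.0441) and with the adipocyte score as a covariate (-0.90, adjusted p = 0.0120). When single arrays were left out it did not pass, the lowest adjusted p being 0.0723. With quantile normalization it was -0.54 (adjusted p = 0.440), and with each array centred on its median -0.64 (adjusted p = 0.379). With WT marrow 0 of 8 members passed in the main test, beside 1.97% of all genes; 2 of 8 members and 16.6% of all genes had an unadjusted p under 0.05, and 2 of 8 members and 11.7% of all genes had groups without overlap.

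Pck1 had higher average signals in ingWAT than in epiWAT with every kind of marrow, though it passed the test with none. With double-knockout marrow it had 17.22, 17.30 and 16.42 in ingWAT, against 13.89, 14.45, 14.18 and 15.52 in epiWAT, without overlap. That difference was 2.47 (SE 0.83, adjusted p = 0.0951), a 5.55-fold higher mean signal. It passed without ingWAT Gipr-/- array 3, an array outside the contrast that shares its estimate of spread (adjusted p = 0.0321). It was 1.38 with the adipocyte score as a covariate (adjusted p = 0.345). Without the 3 epiWAT arrays high in testis or epididymis genes it was 2.27 (adjusted p = 0.158). With the 1 ingWAT array left without those high in lymphocyte genes it was 2.79. The Pck1 depot difference was 1.56 with Gipr-/- marrow (interval -0.17 to 3.29) and 1.29 with WT marrow (interval -0.31 to 2.89). With double-knockout marrow 21.2% of all genes had an unadjusted p under 0.05 and 15.5% had groups without overlap; of the members these were 2 and 1. Gpd1 and Aqp7 likewise had positive differences with all 3 kinds of marrow, from 0.58 to 1.34 for Gpd1 and from 0.62 to 0.95 for Aqp7, and passed the test with none. Their intervals held 0, except that of Gpd1 with Gipr-/- marrow (0.09 to 2.60). The epiWAT double-knockout array 1, with the epididymis score of 7.21, was the lowest epiWAT array for both, at 12.00 for Gpd1 and 13.95 for Aqp7.

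With Gipr-/- marrow all 8 members had higher average signals in ingWAT than in epiWAT, by a median of 1.09, beside 0.02 over all genes; 0 of 8 passed the test (0.614% of all genes). Without the 3 epiWAT arrays high in testis or epididymis genes 7 of 8 were higher, and with the adipocyte score as a covariate 5 of 8 were, with a median of 0.34. Agpat2 had 17.00, 17.16 and 16.61 in ingWAT, against 15.10, 15.51, 15.81 and 16.21 in epiWAT, a difference of 1.26 (SE 0.43, adjusted p = 0.186). Lpin1 had 15.10, 14.83 and 15.88 in ingWAT, against 13.58, 13.61, 14.38 and 14.60 in epiWAT, a difference of 1.23 (SE 0.44, adjusted p = 0.200). Neither gene's groups overlapped, nor did those of Aqp7, so 3 of 8 members and 16.8% of all genes were separate. With Gpd1, 3 of 8 members had an unadjusted p under 0.05, beside 15.1% of all genes. In epiWAT with Gipr-/- marrow the adipocyte score was -0.88 to -0.15, against -0.23 to 0.37 in ingWAT.

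Whether the marrow acted differently in the 2 depots was tested for each member as a difference of differences, and 0 of 24 such values passed. For Gipr-/- minus WT marrow (0% of all genes called, 7.95% at an unadjusted p under 0.05) all 8 values were above 0, with a median of 0.78, beside 0.06 over all genes. The largest were 1.58 for Agpat2 (SE 0.59, adjusted p = 0.531), 1.36 for Lpin1 (adjusted p = 0.580) and the 1.19 of Gpam. With the adipocyte score as a covariate 5 of 8 were above 0, with a median of 0.39. For double-knockout minus Gipr-/- marrow (0.717% called, 13.8% at an unadjusted p under 0.05) 7 of 8 were below 0, with a median of -0.41, beside -0.04 over all genes. With the adipocyte score as a covariate 3 of 8 passed there, Gpam among them at -1.82 (adjusted p = 0.0274). At that setting 467 of the 14502 genes tested passed, in place of 104. Without the arrays high in lymphocyte genes, with 1 double-knockout array left in ingWAT, 6 of 8 were below 0. For double-knockout minus WT marrow (0% called, 8.54% at an unadjusted p under 0.05) 6 of 8 were above 0, from -0.47 for Gpam to 1.18 for Pck1. Pck1 itself, lower on average with Gipr-/- than with WT marrow in both depots, had a difference of differences of 0.27 with an interval of -2.09 to 2.62.

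**Figure D4:**
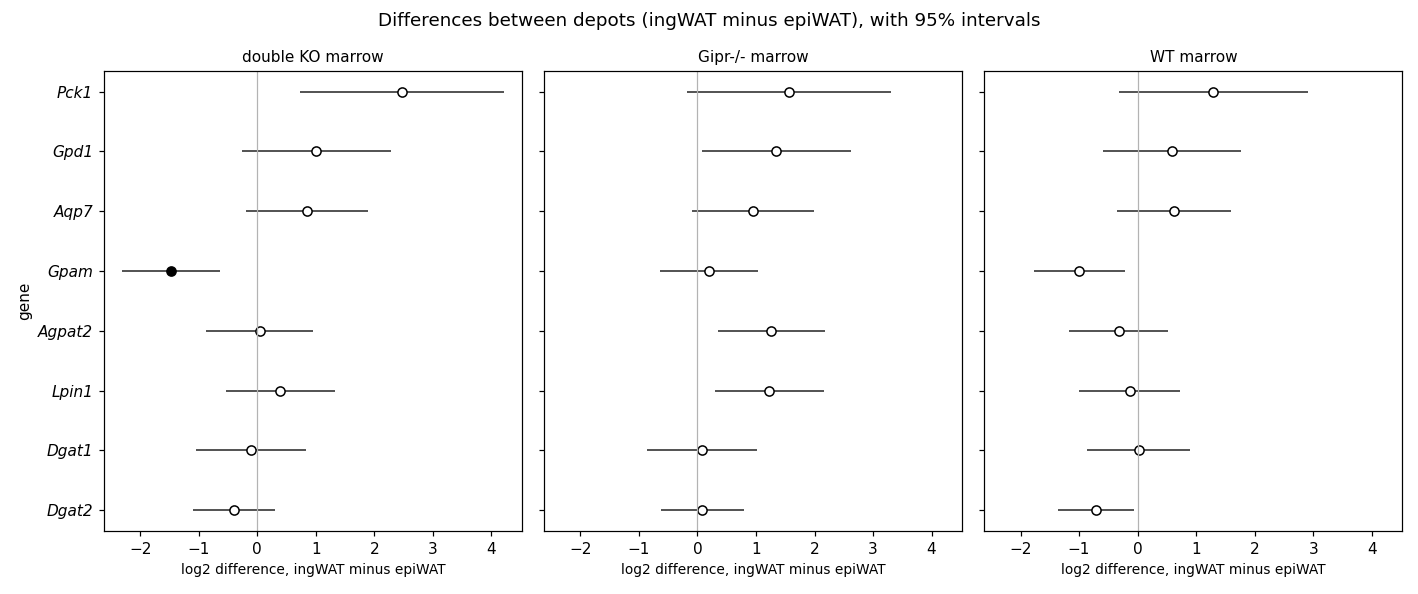
Log2 differences between depots, ingWAT minus epiWAT (horizontal axis), of the 8 genes with each kind of marrow; circles are limma estimates, lines their 95% intervals, and filled circles have adjusted p under 0.05. The filled circle is Gpam with double-knockout marrow at -1.47; the Pck1 estimates lie between 1.29 and 2.47.

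Taken over the 6 groups, the order of mean signals differed by gene, and neighbouring groups in that order overlapped for all 8 genes, with 1 exception: Aqp7 in ingWAT with Gipr-/- marrow lay above its neighbour, ingWAT with WT marrow. Between these groups 15.4% of all genes had no overlap. Pck1 ran from 16.98 in ingWAT with double-knockout marrow down to 13.04 in epiWAT with Gipr-/- marrow. EpiWAT with Gipr-/- marrow was also lowest for Agpat2, at 15.66, and Lpin1, at 14.04, and next to lowest for Gpam, at 12.84. Aqp7 and Gpd1 had their 3 highest means in ingWAT, and Gpam had its 2 highest in epiWAT with WT and double-knockout marrow.

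The members also differed in how much they varied within a group. Pck1 had a within-group SD of 1.51 in ingWAT, above that of 97.9% of the genes tested, and 0.86 in epiWAT. Agpat2 and Dgat2 were steady in ingWAT, with SDs of 0.25 and 0.23, above only 8.52% and 5.88% of the genes, but not in epiWAT, at 0.77 and 0.55. The median SD of all genes was 0.42 in ingWAT and 0.45 in epiWAT. Gpd1 and Aqp7 had the widest spread of the members in epiWAT, at 1.09 and 0.87, with array 1 of the double-knockout group at the low end of both.

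Across the 22 arrays, with the mean of each depot removed, pairs of members correlated with r from -0.00 for Pck1 and Dgat2 to 0.80 for Lpin1 and Dgat2. These values describe arrays that share groups and tissue composition. By the same measure Gpam was most like Cdsn (r = 0.87), Fasn, fatty acid synthase (0.84), and Bola3 (0.83). Lpin1 was most like Ehd2 (0.92), Pnpla3, a lipid droplet protein (0.90), and Cs, citrate synthase (0.89), and Dgat2 was most like Lpl, lipoprotein lipase (0.94), Tuba1a (0.91) and Adamts5 (0.90). For Gpd1 the 3 most alike were Plaat3, a phospholipase of fat cells (0.93), H6pd (0.91) and Cavin2 (0.90), for Aqp7 Dennd5a (0.91), Ccdc125 (0.91) and Agmo (0.90), and for Dgat1 Gnpat (0.89), Steap4 (0.88) and Cd302 (0.87). Pck1 was most like Mknk2 (0.85), Fbxo21 (0.83) and Smarcd2 (0.82), and Agpat2 was most like Olfml1 (0.85), D430019H16Rik (0.85) and Trim16 (0.85).

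Beyond the 8 members, a wider list of 37 genes of triglyceride synthesis, glycerol supply and fatty acid activation was followed, of which 34 were in the table and 33 were tested. In epiWAT 0 of 33 passed in any comparison of marrow (0% of all genes). The genes with the smallest p for Gipr-/- minus WT marrow were Gpat3, another first-step acyltransferase, at -1.48 (adjusted p = 0.590), Mogat1 at -1.16, the lipid phosphatase Plpp1 at 0.89 and Pcx, pyruvate carboxylase, which feeds glyceroneogenesis, at -1.14. The median of the list was -0.01 there, beside -0.64 for the members. For double-knockout minus Gipr-/- marrow Gpat3 stood at 1.43, Agpat3 at 0.83, Gpd1l at 0.71 and Plpp1 at -1.0, with adjusted p of 0.345, 0.302, 0.305 and 0.340. The list's medians were 0.05 for that comparison and -0.05 for double-knockout minus WT marrow.

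In ingWAT, 2 of 33 genes of the wider list passed for double-knockout minus Gipr-/- marrow, both lower, beside 2.65% of all genes called lower. Plpp1 had 10.40, 10.44 and 10.75 with double-knockout marrow, against 11.31, 11.95 and 11.36 with Gipr-/- marrow. Bscl2, which encodes seipin, a protein of lipid droplet formation, had 12.47, 12.49 and 12.64 with double-knockout marrow, against 13.97, 13.89 and 13.15 with Gipr-/- marrow. The groups of both genes were separate, with differences of -1.01 (SE 0.25, adjusted p = 0.0485) and -1.14 (SE 0.28, adjusted p = 0.0493). The title number of WT array 4 lies with those of Gipr-/- arrays 1 and 2, above all other ingWAT arrays. Bscl2 was 13.76 in WT array 4, against 12.94 to 13.05 in the other WT arrays. Plpp1 was 10.76 there, against 10.68 to 11.05. Without the arrays high in lymphocyte genes the differences were -1.10 and -1.19, and the calls ended with 1 double-knockout array left (adjusted p = 0.208 and 0.246). Both calls also ended with quantile normalization (adjusted p = 0.0804 and 0.106), without the filter, with all features, with the adipocyte score as a covariate and with all 22 arrays in one fit, and that of Plpp1 with the muscle score as a covariate (adjusted p = 0.0594). Without single arrays the adjusted p ran up to 0.201 for Plpp1 and 0.195 for Bscl2. Of the list 28 of 33 were below 0, with a median of -0.42, beside -0.03 over all genes. The list's score was -0.46, -0.42 and -0.41 with double-knockout marrow, against -0.02 to 0.03 with Gipr-/- marrow and -0.30 to 0.17 with WT marrow. Against WT marrow 0 of 33 passed (0% of all genes) and 26 of 33 were below 0, with a median of -0.35. Tpi1, a glycolytic enzyme also abundant in muscle, had the smallest p at -2.03 (adjusted p = 0.109), and the muscle score was -0.79 to 5.37 with double-knockout and -1.79 to 7.70 with WT marrow. For Gipr-/- minus WT marrow 0 of 33 passed (0.234% of all genes), with a median of 0.13, and Agpat4 had the smallest p at 1.29 (adjusted p = 0.131).

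Between depots, 2 of 33 genes of the list passed with double-knockout marrow, both lower in ingWAT, beside 3.92% of all genes called and 2.21% called lower. Lpin2, a relative of Lpin1, had 6.02, 5.77 and 7.40 in ingWAT, against 7.92, 7.10, 8.22 and 7.48 in epiWAT, which overlapped, and differed by -1.28 (SE 0.34, adjusted p = 0.0361). Lpin2 was dim here: its signals of 6.02 and 5.77 lay below the array medians, which ran from 6.11 to 6.54. Plpp2 had 6.82, 7.84 and 7.27 in ingWAT, against 9.60, 8.45, 8.94 and 7.87 in epiWAT, without overlap, and differed by -1.41 (SE 0.39, adjusted p = 0.0484). The Lpin2 call ended with median centring (adjusted p = 0.0525), array weights (0.0875), the adipocyte covariate (0.113) and without the 3 epiWAT arrays high in testis or epididymis genes (0.0756). It held with the 1 ingWAT array left without those high in lymphocyte genes (-1.91, adjusted p = 0.0303). That of Plpp2 ended with median centring (0.0548), quantile normalization (0.0591), no filter (0.0591), the adipocyte covariate (0.181), without the 3 epiWAT arrays (0.110) and with that 1 ingWAT array (-0.88, adjusted p = 0.484). With single arrays left out, the adjusted p ran up to 0.165 for Lpin2 and 0.201 for Plpp2. With WT and Gipr-/- marrow 0 of 33 passed (1.97% and 0.614% of all genes), the smallest p belonging to Pdk4, which encodes a kinase that holds back pyruvate oxidation, at 2.34 with WT marrow (adjusted p = 0.0602), and to Gpat3 at 1.79 with Gipr-/- marrow (adjusted p = 0.0821).

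**Figure D5:**
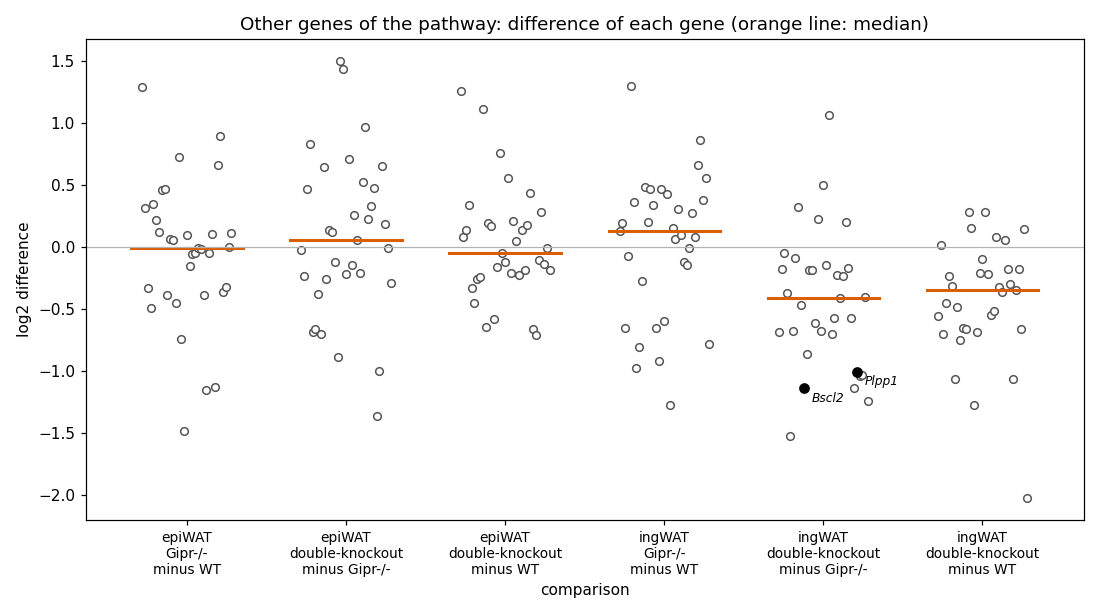
Log2 differences (vertical axis) of the 33 further genes of the pathway in each comparison of marrow; points are genes, orange lines medians, and filled points have adjusted p under 0.05. The filled points are Plpp1 at -1.01 and Bscl2 at -1.14 in ingWAT, double-knockout minus Gipr-/- marrow, where the median is -0.42.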

How the data were processed

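Gene expression was measured on 1-colour Affymetrix whole-transcript arrays from 100 ng of total RNA, per the labels' protocols. The authors deposited 1 value per feature and array, 21793 features in all, between 1.92 and 19.9, taken here as log2; the sources used here give no log base and no normalization. Partek 6.6 is named in the submitters' processing notes, with no role. The platform annotation gave 1 symbol to 19341 features and none to 2452; of 4 genes with several features the one with the higher mean was kept. Precision rests on the number of arrays.

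Groups came from the labels, and array numbers pair nothing. The titles also carry numbers that might tie arrays of both depots to the same mice. No label says so, and contrasts between depots treat the arrays as independent. In ingWAT the title numbers of WT array 4 and of Gipr-/- arrays 1 and 2 lie above those of all other ingWAT arrays. No label says what this gap means, and its part in the ingWAT differences was not tested. Each depot was fitted apart with limma 3.58.1 in R 4.3.3 (lmFit, eBayes with a trend) after leaving out the 25% of genes with the lowest mean. Contrasts between depots used 1 fit of all 22 arrays in 6 groups. Tests were two-sided with Benjamini-Hochberg adjustment over 14502 genes. The fit was tested on simulated data. The members and gene lists were chosen with earlier results of these data known. All 8 members are named in each comparison, from the wider list those past the threshold or else up to 4 with the smallest p, and for likeness the 3 genes with the highest r. Alternatives were the filter, 2 normalizations, array weights, all features, an adipocyte score covariate, 1 fit of all arrays and leaving out each array. Leaving out the arrays high in lymphocyte, testis or epididymis genes and a muscle score covariate were added after the data were seen.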

Additional observations from a re-analysis of the deposited data

Results flagged for a closer look

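Of 32 groups of 4 arrays among the 8 genes, 2 held an array that stood apart from its group by more than Dixon's 95% limit, at a rate of about 1 in 20 by chance. Aqp7 in epiWAT with Gipr-/- marrow had a log2 signal of 15.43 in array 1, while the other arrays of the group lay between 16.36 and 16.50. That array had a testis germ cell score of 6.90 and the lowest mature adipocyte score of its group, -0.88; their part in the Aqp7 signal was not tested. Gpd1 in ingWAT with WT marrow had 15.04 in array 1, while the others lay between 14.42 and 14.48. The same array had the highest Pck1 signal of all, 17.79, and the highest mature adipocyte score, 0.54. None of 24 differences of differences between depots passed the threshold.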

How the results depend on the processing

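No paired analysis was possible because the labels give no replicate numbers that groups share. Some title numbers differ by a constant between depots with the same marrow; no label says that they mark the same mice, so no pairing was built on them, and the depot p-values could change if they did. Of the 23 member differences at an unadjusted p under 0.05, 2 changed sign under an alternative, both of Pck1 in ingWAT with the adipocyte score as a covariate: 0.0066 for Gipr-/- minus WT and -0.012 for double-knockout minus Gipr-/- marrow. Of the other 73 differences, 46 changed sign somewhere, none while past the threshold. The cause was not tested for these or for the counts below. The precision of 3 or 4 arrays a group limits all of them.

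Members past the threshold numbered 1 in place of 0 with array weights for ingWAT double-knockout minus Gipr-/-, for the depot contrast with WT marrow and for the difference of differences of double-knockout minus Gipr-/-. With the adipocyte covariate they numbered 2 for the depot contrast with WT marrow, 2 in place of 1 with double-knockout marrow and 3 for that difference of differences. For the depot contrast with double-knockout marrow they numbered 0 with median centring, 0 without the lymphocyte-high arrays (here and below, 1 double-knockout array left in ingWAT), 2 without the testis- or epididymis-high arrays and 0 to 2 without single arrays; with WT marrow 1 without the testis- or epididymis-high arrays; for ingWAT double-knockout minus Gipr-/- 0 to 1 without single arrays. In the other comparisons it was 0 without any single array.

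Counts over all genes moved more. For epiWAT Gipr-/- minus WT, 0 became 26 with array weights, 6 with all features, 212 with the adipocyte covariate and 0 to 1 without single arrays. For epiWAT double-knockout minus Gipr-/-, 0 became 381 with that covariate and 1 in one fit. For ingWAT Gipr-/- minus WT, 34 became 401 with weights, 0 with either covariate, 97 in one fit, 9 with quantile normalization, 112 centred, 86 without the lymphocyte-high arrays and 0 to 274 without single arrays. For ingWAT double-knockout minus Gipr-/-, 505 became 1797 with weights, 0 with the adipocyte covariate, 0 without the lymphocyte-high arrays and 49 to 1382 without single arrays. For ingWAT double-knockout minus WT, 0 became 555 with weights, 15 with all features, 133 in one fit, 4 with quantile normalization, 16 with the muscle covariate and 0 to 620 without single arrays. Between depots, 286 with WT marrow became 791 with weights, 535 with the adipocyte covariate and 81 to 373 without single arrays; 89 with Gipr-/- marrow became 623 with weights, 54 without the testis- or epididymis-high arrays, 57 without the filter and 2 to 225 without single arrays; 568 with double-knockout marrow became 1187 with weights, 203 without the lymphocyte-high arrays and 96 to 862 without single arrays. For differences of differences, 0 for Gipr-/- minus WT became 28 with weights and 0 to 2 without single arrays; 104 for double-knockout minus Gipr-/- became 927 with weights, 467 with the adipocyte covariate, 5 without the lymphocyte-high arrays, 165 without the testis- or epididymis-high arrays, 69 without the filter and 5 to 543 without single arrays; 0 for double-knockout minus WT became 292 with weights, 1 with the adipocyte covariate, 4 without the testis- or epididymis-high arrays and 0 to 277 without single arrays.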
